A study of Mus musculus with 6 samples.

Results

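The mitochondrial genome of the mouse contributes 37 of the 54532 entries of the deposited expression table, the entries that the table places on chromosome MT. By the table's gene biotype they are 13 messenger RNAs, 2 ribosomal RNAs and 22 transfer RNAs (tRNAs). Their levels were measured by RNA sequencing in the primary visual cortex (area V1) of female C57BL mice aged 9 weeks, each injected in that area with adeno-associated virus (AAV), here the vehicle for genes of short hairpin RNAs. The 3 groups hold 2 libraries each. The shCSB/shNDN group received AAV with hairpins against CSB and necdin, the shCSB group AAV with a hairpin against CSB, and the shControl group AAV with a control hairpin, so that all 3 groups carry a virus. By the series text 2 mice stand for each genotype, so each replicate was read as an animal of its own. The promoter of the hairpins and the share of cells that carried them are not given in the sources used here, nor is a step that removes ribosomal RNA from the total RNA.

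Mitochondrial DNA is a small circle present in many copies per cell, and both of its strands are transcribed into long precursors. The tRNAs lie between most of the messengers and are cut out of the precursors, which frees the messengers and the ribosomal RNAs. The messengers code for core subunits of the respiratory chain: Nd1 to Nd6 and Nd4l for complex I, Cytb for complex III, Co1 to Co3 for complex IV and Atp6 and Atp8 for the ATP synthase, complex V. All other subunits, and all proteins that copy, transcribe, cut and translate mitochondrial RNA, are encoded in the nucleus. Neurons depend on this chain for ATP. CSB, the product of Ercc6, acts in transcription-coupled repair of nuclear DNA and has also been found in mitochondria.

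The targeted genes and the depth set the limits of each comparison. Ercc6 had FPKM values (fragments per kilobase of gene, scaled to the size of the library) of 1.61 and 1.81 in the libraries labelled shCSB/shNDN, 1.29 and 1.61 in those labelled shCSB and 1.46 and 1.22 in shControl. It showed no loss in the libraries that carry its hairpin, so the groups are called by their labels throughout. Ndn, the gene of necdin, had 16.8 and 41.0 FPKM in the libraries labelled shCSB/shNDN, 47.9 and 38.1 in those labelled shCSB and 56.1 and 49.8 in shControl, and only replicate 1 of shCSB/shNDN lay far below the others. The libraries held 15731788 to 17365285 reads. In replicate 2 of shCSB/shNDN low genes stood apart, since it held 435 genes with exactly 1 read, where the 5 other libraries held 1597 to 1839, and 19301 genes with any read, where the others held 21834 to 23352. The 2 shCSB/shNDN libraries are therefore given apart wherever a result rests on them.

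Mitochondrially encoded RNA took the smallest share of reads in replicate 2 of shCSB/shNDN. The 37 genes together held 5.27% and 1.41% of the reads in the libraries labelled shCSB/shNDN, 4.95% and 7.65% in those labelled shCSB and 7.06% and 6.61% in shControl. The 95% Wilson interval of the lowest share runs from 1.40% to 1.41%, which covers counting error only. The mean share was 3.34% ± 2.74 in shCSB/shNDN, 6.30% ± 1.91 in shCSB and 6.84% ± 0.317 in shControl (SD, n = 2 each). Both shCSB/shNDN libraries lay below both shControl libraries, but they differed from each other by more than the group means did. The 2 shCSB libraries lay on either side of the shControl values. An exact two-sided permutation test of 2 libraries against 2 cannot go below p = 0.333, so no p is given for the shares.

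Against replicate 1, replicate 2 of shCSB/shNDN held smaller shares of messengers and of tRNAs. Its share of ribosomal RNA was close to that of replicate 1, and both were below shControl. Messengers took 4.57% and 0.733% of the reads in shCSB/shNDN, 3.98% and 6.51% in shCSB and 5.96% and 5.55% in shControl. Ribosomal RNAs took 0.696% and 0.669% in shCSB/shNDN, 0.957% and 1.12% in shCSB and 1.09% and 1.04% in shControl. Transfer RNAs took 0.0114% and 0.00402% in shCSB/shNDN, 0.0150% and 0.0148% in shCSB and 0.0183% and 0.0189% in shControl. For all 3 classes both shCSB/shNDN libraries were below all shControl libraries, and for the ribosomal RNAs and tRNAs they were also below both shCSB libraries. The number of messenger reads per ribosomal RNA read was 6.56 and 1.10 in shCSB/shNDN, 4.16 and 5.82 in shCSB and 5.48 and 5.33 in shControl. The 2 shCSB/shNDN libraries thus held the highest and the lowest of the 6 ratios.

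**Figure D1:**
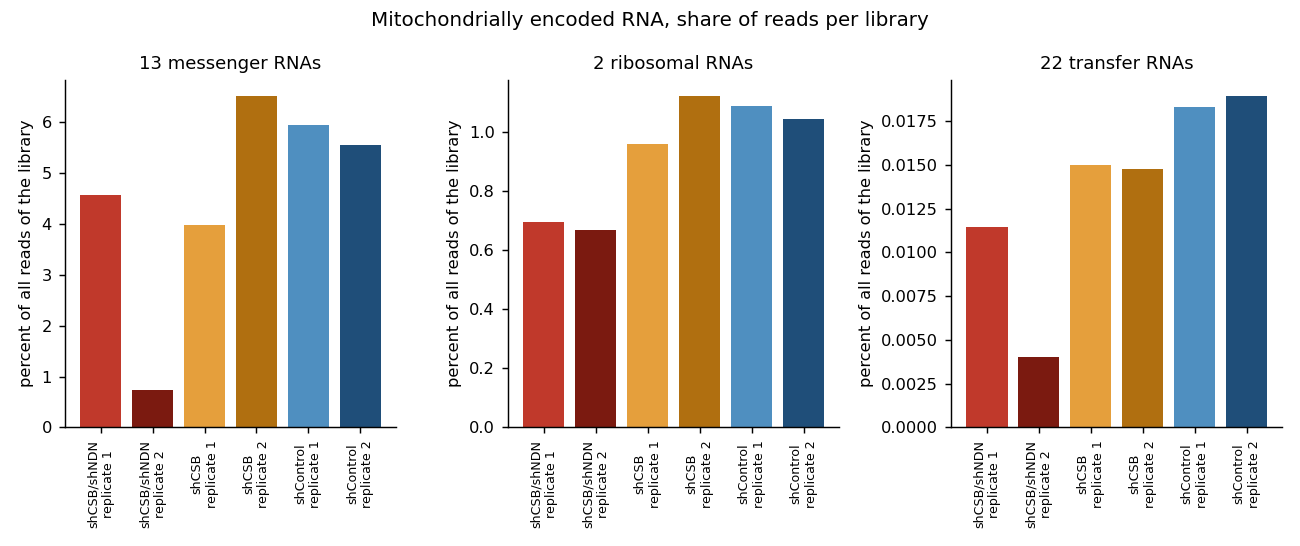
Share of all reads of a library (percent, linear axes from 0) taken by the 13 messengers, the 2 ribosomal RNAs and the 22 tRNAs, 1 bar per library. The lowest bar of all 3 panels is replicate 2 of shCSB/shNDN, at 0.733% for messengers against 3.98% to 6.51% in the 5 other libraries, but its ribosomal RNA share of 0.669% is close to the 0.696% of replicate 1.

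The ribosomal RNAs, the RNA core of the mitochondrial ribosome, were the class in which the 2 shCSB/shNDN libraries came closest. The 12S RNA of the small subunit (mt-Rnr1, ENSMUSG00000064337, GRCm38 chromosome MT, 70 to 1024, plus strand) had 3365 and 2551 FPKM in shCSB/shNDN, 4563 and 5162 in shCSB and 5608 and 5514 in shControl. The 16S RNA of the large subunit (mt-Rnr2, ENSMUSG00000064339, 1094 to 2675, plus strand) had 2235 and 2508 FPKM in shCSB/shNDN, 3227 and 3791 in shCSB and 3694 and 3616 in shControl. For both, every shCSB/shNDN value was below every value of the other groups. The log2 change of shCSB/shNDN against shControl was -0.92 ± 0.35 (SE) for 12S and -0.63 ± 0.31 for 16S (limma, Benjamini-Hochberg adjusted p = 0.342 and 0.433), so neither passed the threshold of 0.05. Against shCSB the changes were -0.73 ± 0.35 and -0.56 ± 0.31 (limma adjusted p = 0.633 and 0.679). The ratio of 16S to 12S FPKM was 0.664 and 0.983 in shCSB/shNDN, 0.707 and 0.734 in shCSB and 0.659 and 0.656 in shControl, highest in replicate 2 of shCSB/shNDN.

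The 7 complex I messengers were all lowest in replicate 2 of shCSB/shNDN. mt-Nd1 (2751 to 3707) had 5922 and 978 FPKM in shCSB/shNDN, 6364 and 10117 in shCSB and 9924 and 9723 in shControl. mt-Nd2 (3914 to 4951) had 3778 and 451 FPKM in shCSB/shNDN, 3720 and 5854 in shCSB and 6104 and 6237 in shControl. mt-Nd4 (10167 to 11544) had 3327 and 106 FPKM in shCSB/shNDN, 3138 and 4557 in shCSB and 5396 and 5015 in shControl. In these 3 the shControl libraries lay close together, both shCSB/shNDN libraries lay below them, and replicate 1 of shCSB was about as low as replicate 1 of shCSB/shNDN. mt-Nd5 (11742 to 13565) had 1704 and 302 FPKM in shCSB/shNDN, 1044 and 2121 in shCSB and 1571 and 1417 in shControl. Replicate 1 of shCSB/shNDN was above both shControl libraries for this gene, so the groups overlapped. mt-Nd4l (9877 to 10173), which shares 7 bases with mt-Nd4, had 82.3 and 14.8 FPKM in shCSB/shNDN, 17.7 and 36.5 in shCSB and 95.3 and 39.7 in shControl. Its shControl values differed 2.40-fold, and again the groups overlapped.

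mt-Nd3 (ENSMUSG00000064360, 9459 to 9806) was the messenger on which the 2 shCSB/shNDN libraries came closest. It had 65.8 and 62.5 FPKM in shCSB/shNDN, 127 and 128 in shCSB and 130 and 138 in shControl. Both shCSB/shNDN libraries were near 50% of the shControl mean, at 49.2% and 46.7%, while the shCSB libraries were at 94.5% and 95.4%. The log2 change was -1.05 ± 0.17 (SE) against shControl and -0.98 ± 0.17 against shCSB (limma adjusted p = 0.140 and 0.321). It had the smallest adjusted p of the 33 members tested against shControl, and it did not pass.

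mt-Nd6 (ENSMUSG00000064368, 13552 to 14070, minus strand), a complex I subunit and the single messenger copied from the other strand, kept a larger part of its level in replicate 2 than the messengers mt-Nd1, mt-Nd2, mt-Nd4, mt-Nd5, mt-Cytb and mt-Co1, at 27.4% of the shControl mean against 2.04% to 20.2%. The plus-strand messengers mt-Nd3 (46.7%) and mt-Co2 kept a larger part than mt-Nd6, so this was not particular to mt-Nd6. The values of mt-Nd6 by library follow. mt-Nd6 had 3439 and 1220 FPKM in shCSB/shNDN, 3068 and 6033 in shCSB and 4369 and 4536 in shControl. As a percent of the summed FPKM of the 12 other messengers, Nd6 came to 10.2% and 24.3% in shCSB/shNDN, 10.03% and 12.3% in shCSB and 9.09% and 9.90% in shControl. This ratio set replicate 2 of shCSB/shNDN apart. Nd6 shares 14 bases with mt-Nd5 on the opposite strand, and the strand setting of the counting is not given in the sources used here.

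mt-Cytb (14145 to 15288), the complex III subunit cytochrome b, had 7176 and 856 FPKM in shCSB/shNDN, 6728 and 10279 in shCSB and 10797 and 9999 in shControl. mt-Co1 (5328 to 6872), the catalytic subunit of complex IV and the messenger with the highest FPKM in every library, had 10496 and 2007 FPKM in shCSB/shNDN, 8539 and 13740 in shCSB and 12741 and 11963 in shControl. For both, the shCSB/shNDN libraries were below the shControl libraries and overlapped with shCSB. mt-Co2 (7013 to 7696), which carries the copper site that takes electrons from cytochrome c, had 430 and 215 FPKM in shCSB/shNDN, 417 and 569 in shCSB and 655 and 369 in shControl. mt-Co3 (8607 to 9390), a core subunit without metal centres, had 276 and 23.0 FPKM in shCSB/shNDN, 115 and 690 in shCSB and 182 and 172 in shControl. Both of these overlapped between all groups, and mt-Co3 spread 6.01-fold between the 2 shCSB libraries.

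The complex V messengers were low in level and uneven. mt-Atp6 (ENSMUSG00000064357, 7927 to 8607), a subunit of the proton channel, had 325 and 10.5 FPKM in shCSB/shNDN, 385 and 804 in shCSB and 428 and 746 in shControl. mt-Atp8 (7766 to 7969), a small membrane subunit, had 13.5 and 2.00 FPKM in shCSB/shNDN, 2.69 and 4.68 in shCSB and 24.7 and 3.28 in shControl. Atp6 was below both other groups in both shCSB/shNDN libraries, whereas Atp8 differed 7.52-fold between the shControl libraries. The 2 genes share 43 bases, so a read in that stretch cannot be given to one of them alone.

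**Figure D2:**
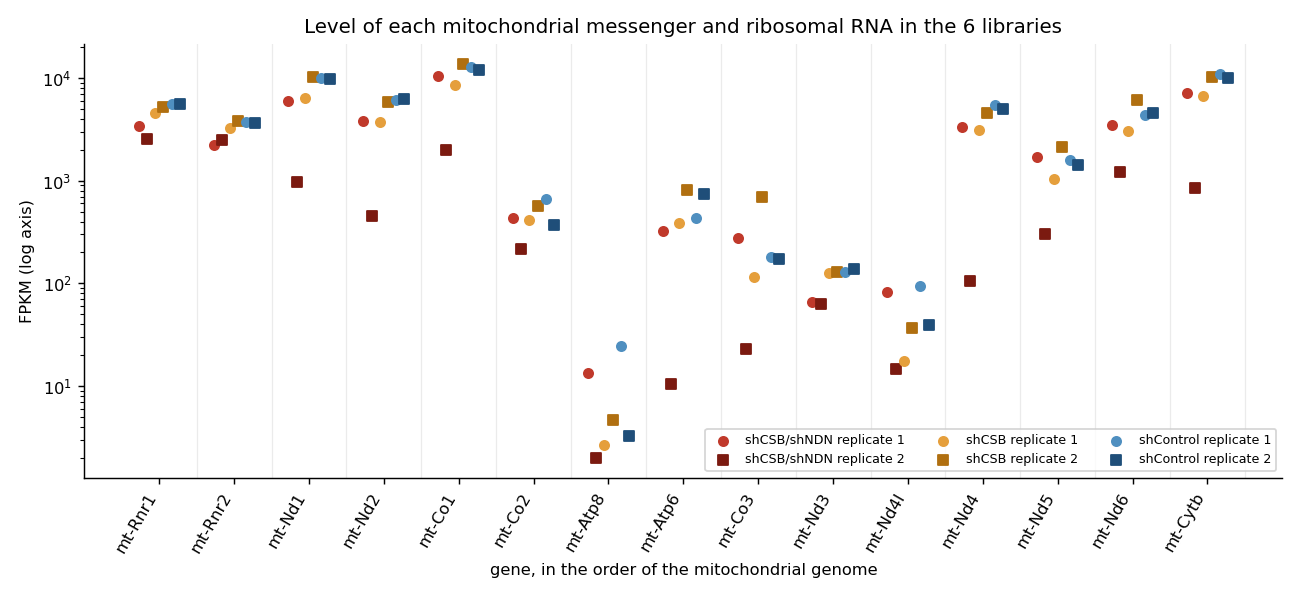
FPKM (log axis) of the 2 ribosomal RNAs and 13 messengers in genome order, 1 point per library. Replicate 2 of shCSB/shNDN is the lowest point for each messenger, with the widest gaps for mt-Atp6 (10.5 FPKM against 325 to 804 in the 5 other libraries) and mt-Nd4 (106 against 3138 to 5396), and is not the lowest for mt-Rnr2.

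Across the 13 messengers, replicate 2 of shCSB/shNDN ranged from 1.78% (mt-Atp6) to 46.7% (mt-Nd3) of the shControl mean, with a median of 14.3%. All 13 were below the 5 other libraries, a position that 30.8% of the 16254 genes tested held in this library. The margin was small for mt-Nd3, mt-Nd4l and mt-Atp8, and mt-Atp8 was at low FPKM in every library. All 13 were under 50% of the shControl mean, 8 were under 20% and 5 under 10%, against 12.8%, 5.08% and 4.15% of all genes tested. Among the genes with a shControl mean of at least 50 FPKM, a limit chosen after the values were seen, were 21 members and 1141 genes in all. Of these 1141 genes, 21 were under 20% of the shControl mean in replicate 2 (1.84%), and 13 of the 21 were mitochondrially encoded, 7 messengers and 6 tRNAs. A further 3 were nuclear copies of mitochondrial genes, and 5 were other genes. Of the 9 genes under 10% (0.789%), 8 were members and 1 was a nuclear copy.

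The other 3 libraries of the hairpin groups held most messengers nearer to the shControl mean. Replicate 1 of shCSB/shNDN ranged from 49.2% (mt-Nd3) to 156% (mt-Co3), with a median of 77.2% and 10 of 13 messengers below the shControl mean. In it 3 messengers were below and 0 above all 4 libraries of the other groups, beside 28.2% and 26.1% of all genes. Replicate 1 of shCSB ranged from 19.3% (mt-Atp8) to 94.5% (mt-Nd3), with a median of 65.0% and 13 of 13 below. Replicate 2 of shCSB ranged from 33.5% (mt-Atp8) to 391% (mt-Co3), with a median of 103% and 6 of 13 below. Replicate 1 of shCSB therefore held a lower median than replicate 1 of shCSB/shNDN, and the 2 shCSB libraries did not move one way.

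**Figure D3:**
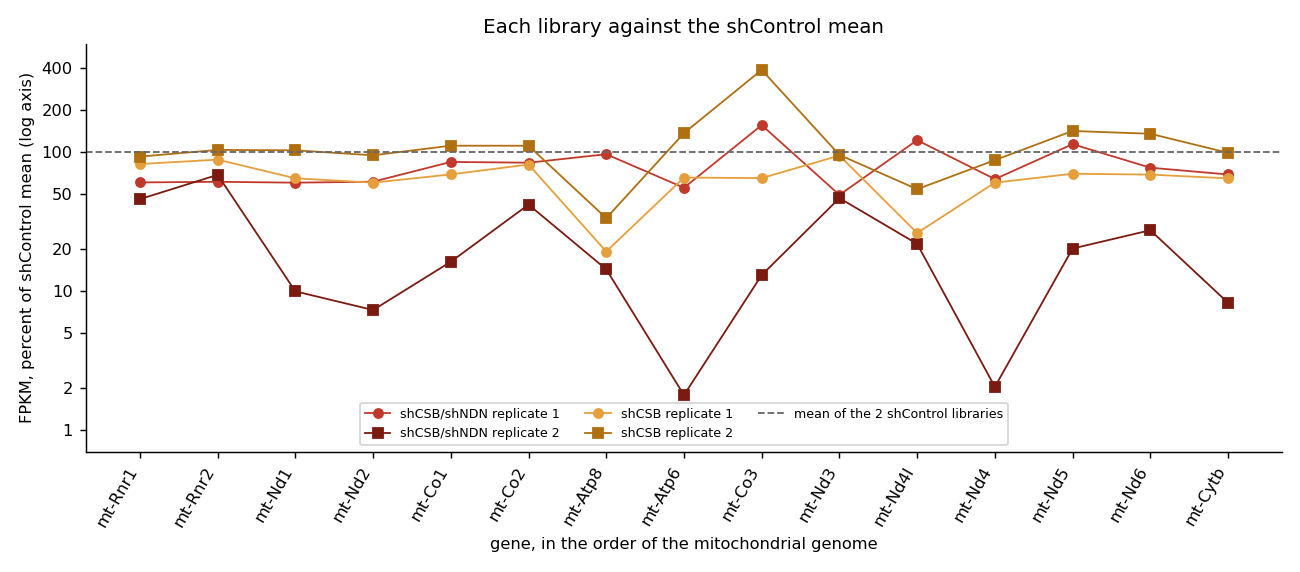
FPKM of each messenger and ribosomal RNA as a percent of the mean of the 2 shControl libraries (log axis; dashed line at 100%), in genome order, for the 4 hairpin libraries. Replicate 2 of shCSB/shNDN lies between 1.78% and 46.7% over the messengers and at 45.9% and 68.6% for 12S and 16S, while replicate 1 stays between 49.2% and 156%.

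The balance between messengers also differed in replicate 2 of shCSB/shNDN. mt-Nd4 held 10.4% and 2.09% of the messenger reads in shCSB/shNDN, 10.99% and 9.88% in shCSB and 12.1% and 11.8% in shControl. mt-Co1 held 36.6% and 44.2% in shCSB/shNDN, 33.5% and 33.4% in shCSB and 32.1% and 31.6% in shControl. The messengers of this library were thus not a uniform fraction of those of the others. Pearson's r of log2 FPKM over the 13 messengers was 0.878 to 0.905 between replicate 2 of shCSB/shNDN and the 5 other libraries, and 0.961 to 0.996 among those 5. These values describe 13 genes that share a genome and precursors, which are not independent points.

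Tested across all genes, no mitochondrially encoded gene passed. Of the 37, 33 passed the filter of at least 0.5 FPKM in at least 2 libraries, all 13 messengers, both ribosomal RNAs and 18 tRNAs. By limma on log2(FPKM + 1), with adjustment over 16254 genes, 0 of 33 passed for shCSB/shNDN against shControl, where 0.00615% of all genes did (1 gene). Likewise 0 passed for shCSB/shNDN against shCSB, and 0 for shCSB against shControl, where the background was 0% each. At an unadjusted p under 0.05, 10 members were lower and 2 higher for shCSB/shNDN against shControl, beside 6.71% and 6.71% of all genes. These counts were 5 lower and 1 higher against shCSB, beside 3.69% and 4.74%, and 1 lower and 1 higher for shCSB against shControl, beside 0.738% and 1.21%. limma-voom on the recovered reads called 0 of 33 in each. The median log2 change of the 13 messengers was -1.12 for shCSB/shNDN against shControl, -1.24 for shCSB/shNDN against shCSB and -0.19 for shCSB against shControl, beside medians of -0.0075, -0.0083 and -0.0035 over all genes tested. Each pair of these comparisons shares a group, so they are not independent. Of the 13 messengers, 8 did not overlap between shCSB/shNDN and shControl and were lower (mt-Nd1, mt-Nd2, mt-Nd3, mt-Nd4, mt-Nd6, mt-Cytb, mt-Co1 and mt-Atp6), beside 23.7% of all genes. Against shCSB, 3 were lower without overlap (mt-Nd1, mt-Nd3 and mt-Atp6), beside 18.4% of all genes. For shCSB against shControl 4 were (mt-Nd2, mt-Nd3, mt-Nd4l and mt-Nd4), beside 18.1%.

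The widest changes carried the widest errors. mt-Atp6 had a log2 change of -3.21 ± 1.41 (SE) against shControl and mt-Nd4 one of -3.12 ± 1.42 (limma adjusted p = 0.386 and 0.395), with 95% intervals that reach above 0. Each of these errors is set by the distance between the 2 shCSB/shNDN libraries. For shCSB against shControl, the messengers ranged from -1.24 ± 0.82 (SE) for mt-Nd4l to 0.67 ± 1.23 for mt-Co3, and 0 of 13 reached an unadjusted p under 0.05. The fit holds 1 variance per gene over all 6 libraries, so these errors also contain the distance between the 2 shCSB/shNDN libraries. In a limma fit of only the 4 libraries compared, 6 of 33 members reached an unadjusted p under 0.05, beside 896 of 16254 genes. Of the members, 0 passed after adjustment there.

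The calls depended on which shCSB/shNDN library was used. In fits with a single shCSB/shNDN library, which is assumed to vary like the other groups, replicate 2 alone gave 17 members lower and 2 higher than shControl, beside 6.51% and 4.61% of all genes tested. They were 9 of 13 messengers, all lower, 0 of 2 ribosomal RNAs, and 10 of 18 tRNAs, 8 lower and 2 higher. Replicate 1 alone gave 5 members lower and 0 higher, beside 0.277% and 3.59% of all genes. Only mt-Nd3, mt-Tn, mt-Tw and mt-Ti were lower with either library alone, as were 0.105% of all genes. Of these, mt-Ti held 2 and 0 reads in shCSB/shNDN and mt-Tw 3 in replicate 2, so their calls rest on few reads. For mt-Nd3 the log2 change was -1.01 ± 0.16 (SE) with replicate 1 and -1.09 ± 0.15 with replicate 2. For mt-Nd4 it was -0.64 ± 0.34 with replicate 1 and -5.60 ± 0.30 with replicate 2 (limma adjusted p = 0.379 and 0.00356). Against shCSB, replicate 2 alone gave 15 members lower and 1 higher, beside 3.19% and 2.30% of all genes. With replicate 1 alone 2 were lower, mt-Nd3 and mt-Ti, and 0 higher, beside 0.117% and 2.86%.

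Transfer RNAs bring amino acids to the mitochondrial ribosome, and each is named by the amino acid it carries. Their reads were few, 1894 and 658 in the shCSB/shNDN libraries, 2432 and 2562 in shCSB and 3077 and 2977 in shControl. Of the 22, 14 had reads in every library and 6 in some. Those for phenylalanine (mt-Tf) and aspartate (mt-Td) had 0 reads in all 6 libraries, which allows up to 3 reads per library, and the lysine tRNA (mt-Tk) had 1 read in all. The tRNAs below carry the results on this class. The first 3 have the most reads and lie on the minus strand, and the other 5, chosen after their values were seen, had more reads in both shCSB/shNDN libraries than in shControl (mt-Th, mt-Ts2, mt-Tl2) or were lower with either of its libraries alone (mt-Ti, mt-Tw). The sequences are those of GENCODE M21 on GRCm38, written 5′ to 3′ on the strand of the gene, with the anticodon in capitals.
mt-Tp: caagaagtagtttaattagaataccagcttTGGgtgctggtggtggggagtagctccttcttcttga
mt-Tc: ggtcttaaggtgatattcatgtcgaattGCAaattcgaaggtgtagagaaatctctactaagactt
mt-Tn: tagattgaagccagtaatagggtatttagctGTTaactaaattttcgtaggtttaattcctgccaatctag
mt-Th: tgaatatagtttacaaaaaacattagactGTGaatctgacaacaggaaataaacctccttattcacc
mt-Ts2: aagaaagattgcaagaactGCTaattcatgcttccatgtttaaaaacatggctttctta
mt-Tl2: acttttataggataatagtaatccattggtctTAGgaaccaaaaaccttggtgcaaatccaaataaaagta
mt-Ti: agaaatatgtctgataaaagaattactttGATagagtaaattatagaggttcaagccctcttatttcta
mt-Tw: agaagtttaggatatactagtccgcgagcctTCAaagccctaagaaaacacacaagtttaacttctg

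The tRNAs of the minus strand held most tRNA reads in every library but one. They had 1572 and 307 reads in shCSB/shNDN, 2094 and 2120 in shCSB and 2665 and 2662 in shControl, which is 83.0%, 46.7%, 86.1%, 82.7%, 86.6% and 89.4% of the tRNA reads in that order. The tRNAs of the plus strand had 322 and 351 reads in shCSB/shNDN, 338 and 442 in shCSB and 412 and 315 in shControl. The plus-strand total of replicate 2 of shCSB/shNDN was thus within the range of the other libraries, and its minus-strand total was far below. Of its 351 plus-strand reads, 212 were of mt-Th, mt-Ts2 and mt-Tl2, which held 41 to 106 in the other libraries. The strand did not divide single tRNAs cleanly, as 3 tRNAs named after their values were seen show. On the minus strand the tyrosine tRNA (mt-Ty, 5260 to 5326) had 129 and 87 reads in shCSB/shNDN, 72 and 124 in shCSB and 106 and 74 in shControl, so replicate 2 lay within the others. On the plus strand the leucine tRNA mt-Tl1 (2676 to 2750) had 103 and 23 reads in shCSB/shNDN, 69 and 80 in shCSB and 144 and 92 in shControl, and mt-Tw, given with mt-Ti further on, was also far below in replicate 2. The proline tRNA (mt-Tp, 15356 to 15422) had 797 and 71 reads in shCSB/shNDN, 1234 and 1080 in shCSB and 1618 and 1704 in shControl. The cysteine tRNA (mt-Tc, 5192 to 5257) had 317 and 87 reads in shCSB/shNDN, 364 and 398 in shCSB and 455 and 423 in shControl. The asparagine tRNA (mt-Tn, 5089 to 5159) had 112 and 47 reads in shCSB/shNDN, 243 and 212 in shCSB and 233 and 270 in shControl. In all 3 both shCSB/shNDN libraries were below the 4 others, with replicate 2 lower. Their log2 FPKM changes against shControl were -2.92 ± 1.00, -1.53 ± 0.55 and -1.90 ± 0.41 (SE; limma adjusted p = 0.321, 0.335 and 0.226).

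Neighbouring tRNAs that lie side by side between mt-Nd4 and mt-Nd5 had more reads in shCSB/shNDN than in shControl. The histidine tRNA (mt-Th, 11546 to 11612) had 37 and 67 reads in shCSB/shNDN, 16 and 48 in shCSB and 5 and 9 in shControl. The serine tRNA mt-Ts2 (11613 to 11671) had 27 and 29 reads in shCSB/shNDN, 15 and 11 in shCSB and 6 and 11 in shControl. The leucine tRNA mt-Tl2 (11671 to 11741) had 41 and 116 reads in shCSB/shNDN, 55 and 47 in shCSB and 30 and 36 in shControl. In reads, all shCSB/shNDN values of the 3 were above those of shControl (in FPKM, mt-Tl2 overlapped), and replicate 2, in which the neighbouring mt-Nd4 was at 2.04% of the shControl mean, held the most reads of each. Summed, the 3 had 105 and 212 reads in shCSB/shNDN, 86 and 106 in shCSB and 41 and 56 in shControl. The log2 changes against shControl were 2.58 ± 0.53, 1.54 ± 0.33 and 0.92 ± 0.46 (SE; limma adjusted p = 0.217, 0.224 and 0.433), so none passed. With replicate 2 alone mt-Th and mt-Tl2 were higher (limma adjusted p = 0.0346 and 0.0174), and with replicate 1 alone neither passed (0.142 and 0.718). Because the reads are few, and reads of precursors and of mature tRNAs are counted together, these are differences in reads over the tRNA genes.

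The isoleucine tRNA (mt-Ti, 3706 to 3774) had 2 and 0 reads in shCSB/shNDN, 12 and 12 in shCSB and 13 and 7 in shControl. The tryptophan tRNA (mt-Tw, 4950 to 5016) had 42 and 3 reads in shCSB/shNDN, 88 and 80 in shCSB and 109 and 81 in shControl. Both were lower without overlap against both other groups. In FPKM, 8 of the 22 tRNAs were lower (mt-Tl1, mt-Ti, mt-Tm, mt-Tw, mt-Ta, mt-Tn, mt-Tc and mt-Tp) and 3 higher (mt-Tg, mt-Th and mt-Ts2) without overlap in shCSB/shNDN against shControl, beside 23.7% and 20.7% of all genes tested. Of the 22, 18 had passed the filter behind those background values. The glycine tRNA (mt-Tg, 9391 to 9458), which lies apart from the others between mt-Co3 and mt-Nd3, had 47 and 77 reads in shCSB/shNDN, 32 and 108 in shCSB and 39 and 17 in shControl. It overlapped with shCSB, and its log2 change against shControl was 1.06 ± 0.59 (SE; limma adjusted p = 0.473).

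**Figure D4:**
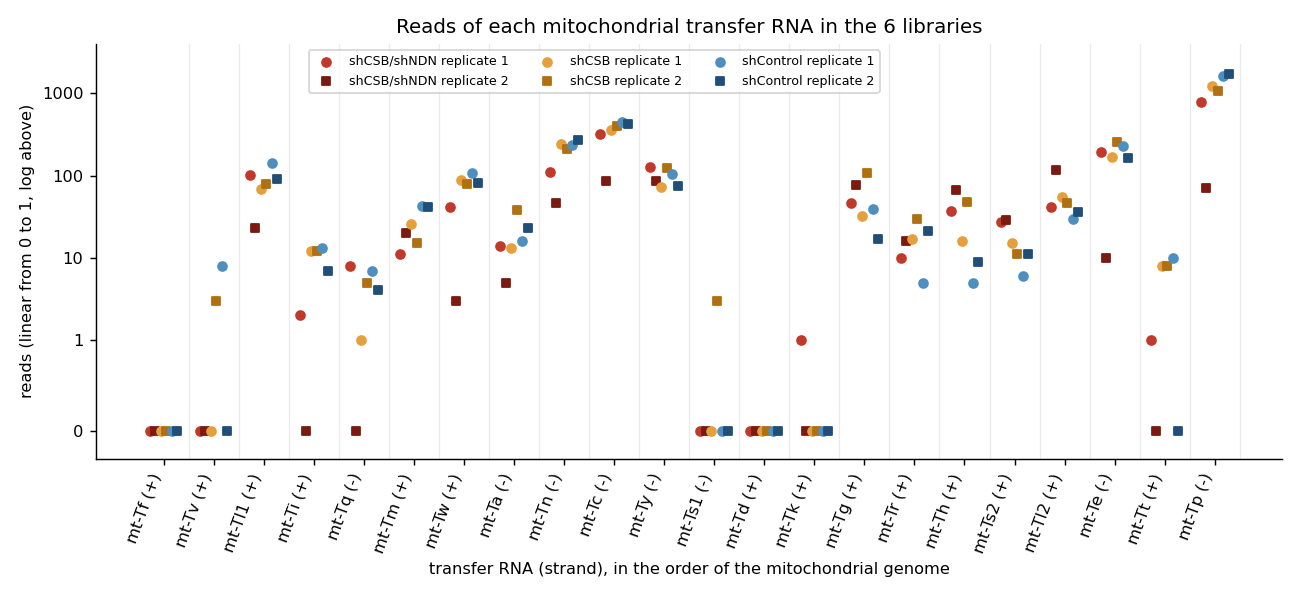
Reads of each of the 22 tRNA genes in genome order with their strand, 1 point per library, on an axis that is linear from 0 to 1 and logarithmic above. Replicate 2 of shCSB/shNDN is far below the other libraries for mt-Tp (71 reads against 797 to 1704), within them for mt-Ty and above them for mt-Th, mt-Ts2 and mt-Tl2.

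Several messengers have near-identical copies in the nuclear genome, pseudogenes that arose when pieces of mitochondrial DNA were inserted into chromosomes. A stretch of GRCm38 chromosome 1 between 24611535 and 24616197 holds full-length or nearly full-length copies of 5 messengers, mt-Co2 (Gm28661), mt-Atp6 (Gm10925), mt-Co3 (Gm28437), mt-Nd3 (Gm28438) and mt-Nd4l (Gm10222), and parts of mt-Nd4 (Gm28439) and mt-Co1 (Gm29216). These nuclear genes were named because they match members, after the values were seen. By blastn 4 of the 5 were identical over the aligned bases and the copy of mt-Nd3 had 1 mismatch in 345 bases. A more diverged copy of mt-Co1 (Gm13340) lies on chromosome 2 and is 97.6% identical. The first bases of mt-Nd3 (chrMT:9459-9518, plus strand) and of its copy (chr1:24613060-24613119, minus strand), and a window of mt-Co1 (chrMT:6005-6064, plus strand) with its copy (chr2:22588911-22588970, minus strand), are shown to give the 2 degrees of likeness. They are from GENCODE M21 transcripts, and capitals mark the bases that differ.
mt-Nd3: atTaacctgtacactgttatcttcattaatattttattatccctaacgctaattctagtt
Gm28438: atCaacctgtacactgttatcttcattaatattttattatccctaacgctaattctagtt
mt-Co1: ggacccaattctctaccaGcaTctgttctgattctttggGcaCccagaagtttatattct
Gm13340: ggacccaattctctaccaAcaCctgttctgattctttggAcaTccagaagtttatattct

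The messengers with near-identical copies of full or nearly full length were the ones listed at low FPKM. For mt-Co2, mt-Atp6, mt-Co3, mt-Nd3 and mt-Nd4l, 97.6% to 99.9% of all windows of 100 bases also occurred, base for base, in a nuclear gene, and their mean FPKM in shControl was 67.5 to 587. For mt-Nd1, mt-Nd2, mt-Co1, mt-Nd4, mt-Nd5, mt-Nd6 and mt-Cytb the share was 0% to 60.8%, and their mean FPKM was 1494 to 12352. mt-Atp8 was the exception, with 0% of its windows in a nuclear gene and 14.0 FPKM. The 2 shControl libraries differed 1.02-fold to 1.11-fold over these 7 messengers and 1.06-fold to 2.40-fold over the 5 at 97.6% to 99.9%. How reads that match several places were assigned is not given in the sources used here, so the levels and changes of these 5 messengers are uncertain. The reads given to the copies were lower in replicate 2 of shCSB/shNDN too. Gm10925 had 2578 and 112 reads in shCSB/shNDN, 1690 and 3113 in shCSB and 2919 and 2915 in shControl. With the reads of its copy added, an alternative chosen after the values were seen, mt-Atp6 was at 63.4% and 2.33% of the shControl mean in shCSB/shNDN, and mt-Nd3 at 52.8% and 43.6%. For the 7 messengers at 0% to 60.8% of windows, replicate 2 of shCSB/shNDN ranged from 2.04% (mt-Nd4) to 27.4% (mt-Nd6). Its median was 9.95%. Replicate 1 ranged from 60.3% (mt-Nd1) to 114% (mt-Nd5), with a median of 69.0%.

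**Figure D5:**
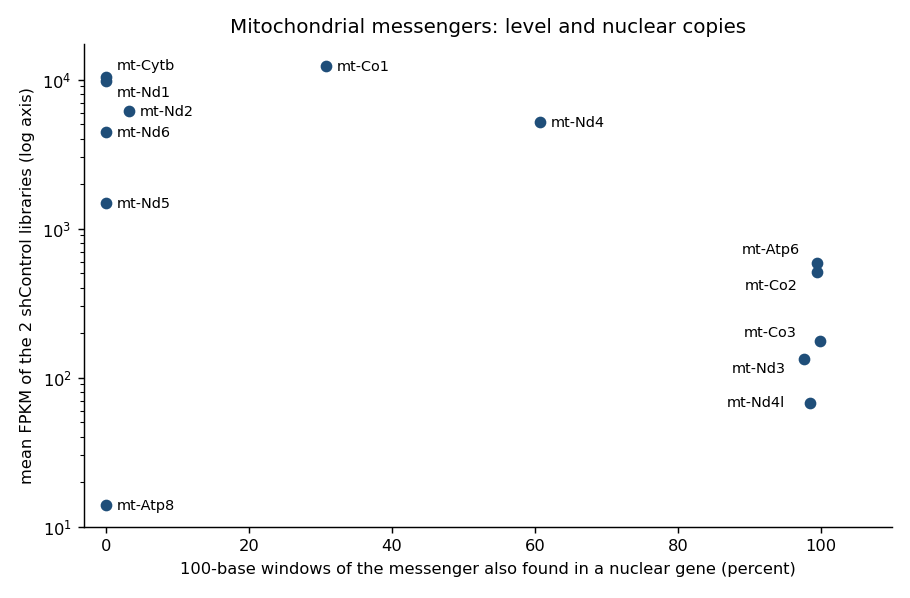
Mean FPKM of the 2 shControl libraries (log axis) against the percent of 100-base windows of each messenger that also occur in a nuclear gene, 1 point per messenger. The 5 messengers at 97.6% to 99.9% lie between 67.5 and 587 FPKM, and the 7 at 0% to 60.8% lie at 1494 FPKM or above, with mt-Atp8 at 14.0 FPKM apart.

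The nuclear genes of the respiratory chain, whose subunits assemble with the mitochondrially encoded ones, were ordered differently between the libraries. The summed FPKM of 37 nuclear-encoded complex I subunits was 71.7% and 91.9% of the shControl mean in shCSB/shNDN and 103% and 80.1% in shCSB. For 35 subunits of complexes III, IV and V the sums were 72.3% and 82.8% in shCSB/shNDN and 98.2% and 80.3% in shCSB. Replicate 1 of shCSB/shNDN, not replicate 2, held the lower sum in both lists, the reverse of the order for the mitochondrial messengers. The median log2 change against shControl was -0.45 for complex I and -0.46 for complexes III to V, beside -0.0075 over all genes, with 0 of 37 and 0 of 35 called by limma. At an unadjusted p under 0.05, 13 and 13 were lower and 0 and 0 higher, beside 6.71% and 6.71% of all genes. Ndufb2 (-0.51 ± 0.18, SE) and Ndufb4 (-0.97 ± 0.34), accessory subunits of complex I, had the smallest p of the first list. Cox7b (-1.06 ± 0.27), a small subunit of complex IV, and Atp5k (-0.72 ± 0.19), a subunit of the ATP synthase, had the smallest p of the second.

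Genes that make, process and translate mitochondrial RNA held no called gene either, where 0.00615% of all genes were called against shControl. The 78 mitochondrial ribosomal protein genes summed to 78.2% and 88.2% of the shControl mean in shCSB/shNDN and 98.9% and 80.3% in shCSB. Of the 77 tested, 0 were called, with a median log2 change against shControl of -0.23. All 17 that reached an unadjusted p under 0.05 by limma were lower, beside 6.71% of all genes. Mrps33 (-0.90 ± 0.20, SE) and Mrpl14 (-0.73 ± 0.22), proteins of the small and the large subunit, had the smallest p. The 18 genes of mitochondrial DNA upkeep and transcription summed to 97.2% and 115% in shCSB/shNDN and 99.4% and 101% in shCSB. Of the 17 tested, 0 were called, 1 was lower at an unadjusted p under 0.05, and the median log2 change was 0.019. Tfb1m (-0.57 ± 0.18, SE), a methyltransferase of 12S RNA, and Polg (0.27 ± 0.16), the catalytic subunit of the mitochondrial DNA polymerase, had the smallest p. In the RNA processing list 31 of 32 genes were tested and 0 were called, with a median of -0.038 and sums of 84.7% and 99.4% in shCSB/shNDN. At an unadjusted p under 0.05, 3 genes were lower in this list. Ptcd2 (-0.52 ± 0.16, SE), an RNA-binding protein, and Hsd17b10 (-0.49 ± 0.17), a subunit of the enzyme that cuts the 5′ ends of tRNAs, led it.

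For the 17 mitochondrial aminoacyl-tRNA synthetases, which charge the tRNAs, the sums were 88.8% and 115% in shCSB/shNDN and the median log2 change was 0.0073, with 0 called. Sars2 (-0.46 ± 0.17, SE) and Ears2 (0.42 ± 0.19), the seryl and glutamyl enzymes, had the smallest p. The 27 genes used as a measure of mitochondrial mass, of import, the outer membrane and the matrix, summed to 79.1% and 90.6% in shCSB/shNDN and 99.1% and 87.2% in shCSB, with a median of -0.14 and 0 called. Idh3a (-0.50 ± 0.16, SE), an enzyme of the citric acid cycle, had the smallest p. Of 5 tested regulators of mitochondrial biogenesis 0 were called, with Gabpa (0.37 ± 0.16, SE) and Nrf1 (0.25 ± 0.17), transcription factors of nuclear respiratory genes, in front. At an unadjusted p under 0.05, 1 synthetase, 3 genes of mitochondrial mass and 0 regulators were lower, beside 6.71% of all genes. Of all genes tested, 0.00615% were called against shControl. Every gene named from these lists had a limma adjusted p of at least 0.230.

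Markers of the cell types of the cortex also differed between the libraries. The defining markers of excitatory neurons, the cells expected in this tissue, had reads in all libraries, and their summed FPKM was 812 and 570 in shCSB/shNDN, 856 and 848 in shCSB and 934 and 1041 in shControl. The 8 microglia and macrophage markers summed to 1893 and 448 FPKM in shCSB/shNDN, 174 and 206 in shCSB and 134 and 132 in shControl. The excitatory neuron sum was lowest in replicate 2 and the microglia sum highest in replicate 1 of shCSB/shNDN. The 7 inhibitory neuron markers, in the reverse order, summed to 54.9% and 147% of the shControl mean in shCSB/shNDN, the 7 astrocyte markers to 132% and 83.4%, and the 7 oligodendrocyte markers to 100% and 77.1%. In replicate 2 the median log2 difference from shControl went against the sum for inhibitory neurons (-0.067) and astrocytes (0.066). Sums were 95.4% and 179% for endothelial, 113% and 138% for oligodendrocyte precursor and 112% and 89.2% for mural markers. Here too the median went against the sum for endothelial markers in replicate 1 (0.275) and oligodendrocyte precursor markers in replicate 2 (-0.043). They were 80.2% and 117% for blood, where the shControl libraries themselves were at 78.6% and 121% of their mean. For hippocampus they were 37.9% and 47.1%, with the shControl libraries apart at 144% and 55.7%. Only 3 hippocampus markers were tested, with a median log2 change against shControl of 0.11. Meninges and fibroblast markers summed to 227% and 191% in shCSB/shNDN and 271% and 234% in shCSB. No marker of these lists was at 0 in all libraries, and 0 passed the test in any comparison. In bulk tissue, fewer cells of a type and less RNA per cell cannot be told apart, and the part of these markers, and of the low number of genes with 1 read in replicate 2, in the levels of mitochondrial RNA was not tested.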

How the data were processed

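RNA of V1 cortex was measured in 6 libraries, 2 per group, from a stranded kit for total RNA (per the labels' protocols). The authors deposited FPKM values in a single table. FastQC, HISAT2 2.0.4 and the build GRCm39 are named per the submitters' processing notes. The counting program, its strand setting and its treatment of reads with several matches are not given in the sources used here. The table's positions equal those of GENCODE M21 (GRCm38) for 53585 of 54495 shared genes and for all 37 members, so coordinates are given as GRCm38.

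In each library, FPKM times gene length came in equal steps, each worth 1 read, and 100% of values were whole reads within 0.01. Totals were 16545933 and 16384738 in shCSB/shNDN, 16192850 and 17365285 in shCSB and 16781184 and 15731788 in shControl. The library sizes behind the FPKM were 0.949 to 1.04 times these totals. A count of 0 allows 3 reads. The Wilson interval covers counting error only, those of limma the spread between libraries.

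The test was limma (version 3.58.1, R 4.3.3) on log2(FPKM + 1), with 1 mean per group, all 6 libraries and a trended prior variance, for the 16254 genes with at least 0.5 FPKM in at least 2 libraries, with two-sided tests and Benjamini-Hochberg adjustment over those genes. Fold changes on this scale understate the change of low genes. The fit had 3 residual and 3.42 prior degrees of freedom, and the steps were tested on simulated reads. Duplicate symbols were summed. Nuclear copies came from blastn 2.17.0 and from exact matches of 100-base windows to GENCODE M21 transcripts.

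Alternatives were a pseudocount of 0.1, other filters, a block for the replicate number, a fit of only the 4 libraries compared, scaling to nuclear reads or to mitochondrial messengers, quantile normalization, limma-voom on the recovered reads, and leaving out each library. Same-numbered libraries did not deviate together, so the main fit has no block. Messengers and ribosomal RNAs are all named, tRNAs by the most and fewest reads with others added after their values were seen, and pathway genes by the 2 smallest unadjusted p against shControl per list, of which 1 gene is not reported here. The members and lists were chosen with earlier results of these data known.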

Additional observations from a re-analysis of the deposited data

How the results depend on the processing

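The count of members past the threshold was 0 in all 3 comparisons under both pseudocounts, all filters, the replicate block, the fit of 4 libraries, every scaling and limma-voom. Leaving out single libraries moved it to between 0 and 16 for shCSB/shNDN against shCSB and between 0 and 19 for shCSB/shNDN against shControl, reaching 16 and 19 without shCSB/shNDN replicate 1. Without shCSB/shNDN replicate 2 the counts were 2 and 5. For shCSB against shControl it was 0 throughout. The replicate block gave 0 members. Over all genes it called 3 for shCSB/shNDN against shControl, where the main fit called 1. Deviations of same-numbered libraries correlated at -0.071, -0.016 and 0.054, so no shared deviation by number was seen. With 2 libraries per group these values cannot exclude a pairing. The log2 ratio of the mitochondrial share ranged from -0.47 to 0.16 over the libraries left out for shCSB against shControl (-0.12 with all libraries, -0.47 without shCSB replicate 2, and turned to 0.16 without shCSB replicate 1), from -2.16 to -0.26 for shCSB/shNDN against shCSB (-0.92 with all, -2.16 without shCSB/shNDN replicate 1) and from -2.28 to -0.37 for shCSB/shNDN against shControl (-1.03 with all, -2.28 without that library). Scaling to the summed mitochondrial messengers shifted the median of all genes by 1.45 in shCSB/shNDN against shControl, and 14 of 33 members turned sign there. Among the messengers, ribosomal RNAs and 9 of the tRNAs described, they became 0.83 for mt-Rnr1, 1.13 for mt-Rnr2, 0.33 for mt-Co1, 1.06 for mt-Co2, 0.79 for mt-Atp8, 0.61 for mt-Co3, 0.69 for mt-Nd3, 0.92 for mt-Nd4l, 0.70 for mt-Nd5, 0.64 for mt-Nd6 and 0.22 for mt-Tc, all below the shift of 1.45, which that scaling sets by its construction. Over the libraries left out, the changes against shControl ranged from -1.96 to 0.62 for mt-Atp8, -2.89 to 0.64 for mt-Co3, -1.99 to 0.41 for mt-Nd4l and -2.30 to 0.19 for mt-Nd5. They were above 0 without shCSB/shNDN replicate 2 (0.47, 0.64, 0.41 and 0.19 in that order) and, for mt-Atp8, without shControl replicate 1 (0.62). The cause was not tested. The median messenger change against shControl was -1.12 with all libraries, -2.62 without shCSB/shNDN replicate 1 and -0.37 without replicate 2. Against shCSB it was -1.24, -2.43 and -0.18 in that order. Depth limits the tRNAs most: with 0 to 3 reads in a library no fold is given.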
